A study of Mus musculus with 9 samples.

Results

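The 10 genes studied here belong to the melanocyte, the cell that makes the pigment melanin, and were followed across 9 RNA-seq libraries of mouse skin. They were taken by gene name, with no threshold on a measured value, and all 10 of 10 were found among the 55382 genes of the table: Mlana, Pmel, Dct, Tyrp1, Tyr, Slc45a2, Oca2, Kit, Sox10 and Mitf. The levels are FPKM, fragment numbers scaled to transcript length and to the mapped fragments of the library. They can be compared between genes of a library, while a comparison between libraries also moves with what else each library holds.

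The libraries came from the skin of female C57BL/6 mice in 3 groups of 3. BLM stands for mice whose shaved backs had received bleomycin, 100 µL of a 1 mg/mL solution under the skin for 28 days, to bring about a scleroderma-like fibrosis, followed by PBS. EXO stands for mice given the same bleomycin and then 15 µg of exosomes, the vesicles shed by cultured bone marrow stromal cells. NORMAL stands for mice given PBS with no bleomycin. The study's design puts the exosome or PBS treatment at 7 days, and its question here was how the skin's expressed genes differed between these states. In the labels the treatment field of the BLM libraries reads none, while the methods give PBS to the bleomycin mice of that arm. The age and hair cycle stage of each mouse were not given in the sources used here. Nothing in them says that the 3 libraries of a group came from 3 mice, so that every p-value measures the spread between these libraries, which may be technical. Libraries 1 and 2 of a group carry those numbers in their titles, and library 3 is the one whose title carries none.

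In mouse back skin the melanocytes that make pigment sit mainly in the hair follicles, and they make it while hairs grow. Melanin is built inside a dedicated organelle, the melanosome, on a fibre scaffold and by a small set of enzymes, with transporters that set the melanosome's ionic state. The transcription factor Mitf, itself under the control of Sox10 and Pax3, is known to drive the genes of this machinery through a short promoter motif, the M-box, and the receptor Kit carries growth signals into the cell.

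The promoters that hold this motif are shown because the results turn on the enzymes they drive. Of the 10 genes, 6 had a promoter in the RefSeq table for GRCm38.p6, with 9 start sites among them, each given as 250 bases before the start and 50 after it. Those of Mlana, Pmel, Slc45a2 and Sox10 were not analysed here. The core of the M-box, TCATGTG, was searched on both strands (on the other strand it reads CACATGA), and it stands in capitals in the lines that follow. It was present in the windows of 3 genes, the enzymes Tyrp1, Tyr and Dct.
Tyrp1, chr4:80833963-80834262, + strand: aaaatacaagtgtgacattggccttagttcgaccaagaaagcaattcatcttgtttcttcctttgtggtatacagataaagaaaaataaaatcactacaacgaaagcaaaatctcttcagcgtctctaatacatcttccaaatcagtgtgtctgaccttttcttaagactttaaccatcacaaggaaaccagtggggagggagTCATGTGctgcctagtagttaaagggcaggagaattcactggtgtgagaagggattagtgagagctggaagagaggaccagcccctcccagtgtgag
Tyr, chr7:87493463-87493762, - strand: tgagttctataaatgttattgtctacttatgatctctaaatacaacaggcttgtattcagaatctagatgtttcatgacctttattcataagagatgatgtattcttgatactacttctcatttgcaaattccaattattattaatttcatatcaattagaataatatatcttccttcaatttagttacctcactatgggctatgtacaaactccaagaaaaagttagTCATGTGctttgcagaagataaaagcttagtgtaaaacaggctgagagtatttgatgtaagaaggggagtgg
Dct, chr14:118052197-118052496, - strand: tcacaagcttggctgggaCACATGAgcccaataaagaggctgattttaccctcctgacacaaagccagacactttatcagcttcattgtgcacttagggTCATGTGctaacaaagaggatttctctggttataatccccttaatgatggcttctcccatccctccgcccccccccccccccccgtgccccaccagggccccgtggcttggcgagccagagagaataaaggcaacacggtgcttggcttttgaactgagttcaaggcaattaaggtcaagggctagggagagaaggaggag
The motif began 47 bases before the start in Tyrp1 and 22 bases before it in Tyr. These distances are from RefSeq starts. The Tyrp1 gene span given further on comes from another annotation, GENCODE M21, and begins inside this window, before the motif. Dct held it at 151 bases before the start and again, in the opposite orientation, at 232. Of all 32851 promoters of this length, 1239 held the motif, or 3.77%. The shorter E-box CATGTG, which every TCATGTG contains, was found in the same 3 genes and in Oca2, where it began 186 bases before the start, and in 14.2% of all promoters. The 3 windows of Mitf and those of Kit held neither of these letter strings. A match describes the letters of a window and not a bound site.

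The pigment genes were many times higher in BLM skin than in either other group, and the regulator said to drive them was not. Every BLM library lay above every NORMAL library for 7 of the 10 genes, those of the melanosome scaffold, the enzymes and the transporters. Among all 30209 genes above 0 in any library, 3.01% had their BLM libraries placed so. The same 7 genes had every BLM library above every EXO library, against 2.61% of all genes. BLM libraries lay above all 6 others for these 7 genes, and for 1.15% of all genes. Levels in EXO and NORMAL skin overlapped for all 10 genes, Oca2 only because it was listed at 0 in all 6 of these libraries. The share of all genes that overlapped in this way was not counted, so the overlap does not show that these groups were alike. Because the tissue was sequenced whole, fewer melanocytes and less pigment RNA per melanocyte cannot be told apart.

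**Figure D1:**
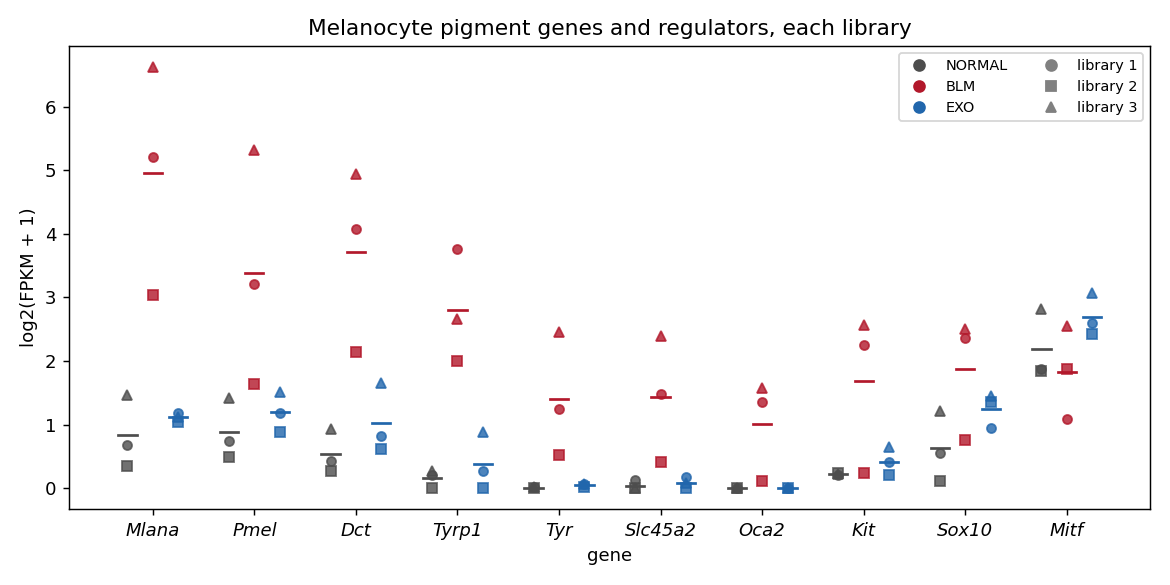
Level of each gene in each library, as log2(FPKM + 1), with colours for the groups, marker shapes for the library numbers and a bar at each group's mean. The red BLM points lie above the grey NORMAL and blue EXO points for the 7 genes from Mlana to Oca2, and among the others for Mitf.

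Mlana, a melanosomal membrane protein (also called MART-1) that takes part in the maturation of the Pmel scaffold, lies on chromosome 19 (GRCm38, 29697824 to 29708634, + strand). It measured 0.61, 0.27 and 1.75 FPKM in NORMAL libraries 1 to 3, 36.1, 7.23 and 97.75 FPKM in BLM, and 1.27, 1.05 and 1.18 FPKM in EXO. The lowest BLM library was above the highest of the others, and the BLM libraries were the ones that differed most among themselves. The means were 0.877 ± 0.775 FPKM in NORMAL, 47.0 ± 46.2 FPKM in BLM and 1.17 ± 0.111 FPKM in EXO (SD, n = 3 each), a ratio of 53.6 between BLM and NORMAL and of 40.3 between BLM and EXO. Mlana was the most abundant of the 10 genes in every BLM library.

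Pmel, whose fragments form the amyloid fibres on which melanin is laid down, lies on chromosome 10 (128704195 to 128720238, + strand). Its levels were 0.67, 0.41 and 1.67 FPKM in NORMAL, 8.30, 2.10 and 39.03 FPKM in BLM, and 1.26, 0.85 and 1.86 FPKM in EXO. All BLM libraries were again the highest, but library 2 exceeded the top EXO library by little. The ratio of means was 18.0 against NORMAL and 12.5 against EXO. Pmel overlaps Cdk2 and Dgka, which lie on the opposite strand and reached 12.23 and 54.59 FPKM. The libraries marked strand, but the strand setting of the authors' counting is not given in the sources used here, so reads shared by these genes cannot be told apart.

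The 3 enzymes followed the same order. Dct, or dopachrome tautomerase, which converts dopachrome on the way to brown-black eumelanin, lies on chromosome 14 (118012790 to 118052244, - strand). It measured 0.34, 0.20 and 0.91 FPKM in NORMAL, 15.83, 3.41 and 29.86 FPKM in BLM, and 0.76, 0.53 and 2.16 FPKM in EXO. Its BLM libraries were all the highest, with library 2 the nearest to the rest, and the ratios of means were 33.9 and 14.2 against NORMAL and EXO. Tyrp1, which acts later on the eumelanin path in the mouse and keeps tyrosinase stable, lies on chromosome 4 (80834123 to 80851719, + strand). It was at 0.16, 0 and 0.21 FPKM in NORMAL, at 12.55, 3.02 and 5.31 FPKM in BLM, and at 0.20, 0 and 0.84 FPKM in EXO. Tyrp1 was the only pigment gene in which BLM library 1, not library 3, was the highest. Tyr, or tyrosinase, which carries out the first and rate-limiting step, lies on chromosome 7 (87424771 to 87493512, - strand). It was at 0.01, 0 and 0.01 FPKM in NORMAL, at 1.38, 0.43 and 4.5 FPKM in BLM, and at 0.05, 0.01 and 0.05 FPKM in EXO. At the depth estimated for NORMAL library 1, its 0.01 FPKM is worth about 1.5 fragments, so the NORMAL level of Tyr lay at the limit of detection and no ratio to it is given.

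The 2 transporter genes were low everywhere outside BLM skin. Slc45a2, a membrane transporter needed for melanosome function, lies on chromosome 15 (11000721 to 11029233, + strand). It was at 0.09, 0 and 0 FPKM in NORMAL, at 1.79, 0.33 and 4.26 FPKM in BLM, and at 0.13, 0 and 0.06 FPKM in EXO. Oca2, which sets melanosomal pH through anion transport, lies on chromosome 7 (56239760 to 56536518, + strand). It was at 1.57, 0.08 and 1.97 FPKM in BLM and was listed at 0 in all 6 NORMAL and EXO libraries, so that no ratio is given. BLM library 2 was the lowest BLM library for both transporters, and its Oca2 level was worth about 6.72 fragments at the estimated depth.

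Kit and Sox10 were higher in BLM libraries 1 and 3 but not in library 2. Kit, the receptor of Kit ligand and also a receptor of mast cells, lies on chromosome 5 (75574916 to 75656722, + strand). It measured 0.15, 0.18 and 0.17 FPKM in NORMAL, 3.74, 0.18 and 4.91 FPKM in BLM, and 0.33, 0.15 and 0.56 FPKM in EXO. In BLM library 2 Kit was thus at the level of a NORMAL library while Mlana there was at 7.23 FPKM. Sox10, a transcription factor of melanocytes and of the glia of nerves, lies on chromosome 15 (79154908 to 79165240, - strand). Its levels were 0.46, 0.08 and 1.33 FPKM in NORMAL, 4.14, 0.70 and 4.67 FPKM in BLM, and 0.93, 1.56 and 1.72 FPKM in EXO. BLM library 2 lay below 1 NORMAL and all 3 EXO libraries.

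Mitf did not follow the pigment genes. It lies on chromosome 6 (97807052 to 98021349, + strand), has several promoters, and its protein is made in many cell types besides melanocytes. It measured 2.68, 2.59 and 6.08 FPKM in NORMAL, 1.13, 2.65 and 4.83 FPKM in BLM, and 5.04, 4.40 and 7.41 FPKM in EXO. The groups overlapped, with the lowest level of all in BLM library 1, whose pigment genes were among the highest. The table gives 1 value a gene, so the transcript form that melanocytes use was not separated from the others. Mitf had the highest level of the 10 genes in each NORMAL and EXO library, and the means were 3.78 ± 1.99 FPKM in NORMAL, 2.87 ± 1.86 FPKM in BLM and 5.62 ± 1.59 FPKM in EXO (SD, n = 3 each).

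The test was limma on log2(FPKM + 1) with all 9 libraries in 1 fit and Benjamini-Hochberg adjustment over all genes tested. Only 6 of the 10 genes had at least 1 FPKM in at least 3 libraries, the filter of that fit, and Tyrp1 passed it through its BLM libraries alone. Dct reached 1 FPKM in 4 libraries, 3 of them BLM, so it too would have missed the filter without BLM skin. Tyr, Slc45a2, Oca2 and Kit were read from a second fit with no filter. A call was an adjusted p below 0.05. The study's own criteria, a log2 change beyond 1 in either direction with an unadjusted p below 0.05, were used as a second and weaker rule. Changes on this scale understate the differences of genes with low levels.

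Between BLM and NORMAL, Mlana was higher by 4.13 ± 0.73 (log2, SE; adjusted p = 0.122), Dct by 3.18 ± 0.63 (adjusted p = 0.174) and Tyrp1 by 2.65 ± 0.44 (adjusted p = 0.103). These 3 genes missed the call, and so did Pmel at 2.51 ± 0.74 (adjusted p = 0.429) and Sox10 at 1.25 ± 0.49 (adjusted p = 0.644). The fit called 2 genes of 14254, or 0.014%, and 1050 at an unadjusted p below 0.05. Libraries of the same number deviated together, and with the library number as a block Mlana (adjusted p = 0.0299), Dct (adjusted p = 0.0299) and Tyrp1 (adjusted p = 0.0322) were called, while Pmel was not (adjusted p = 0.0818). In that fit 0.407% of all genes were called as higher in BLM. The block called none of the 10 genes once the filter was dropped (adjusted p = 0.212 for Mlana).

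By the weaker rule with no filter, 9 of the 10 genes were higher in BLM than in NORMAL skin, all but Mitf, where 1.32% of all 30209 genes were. The median log2 difference of the 10 was 1.43, and that of all genes was 0. Of the genes read from this fit, Kit was higher by 1.46 ± 0.55 (unadjusted p = 0.0272), Tyr by 1.40 ± 0.41 (unadjusted p = 0.0085) and Slc45a2 by 1.39 ± 0.42 (unadjusted p = 0.00992), and none had an adjusted p below 0.72 with all 9 libraries. Oca2 passed with NORMAL listed at 0. Mitf differed by -0.35 ± 0.46 (adjusted p = 0.956). The count rested in part on BLM library 3, the one with the highest pigment level. In the filtered fit 4.57% of all genes passed in either direction without this library, and 5.9% with all 9 libraries. The share with no filter was not counted. Without BLM library 3 and with no filter 4 of the 10 genes passed, Mlana, Tyrp1, Dct and Pmel. Leaving out BLM library 2, the one with the lowest pigment level, acted the other way: with no filter 6 of the 10 genes were then called, Mlana (limma adjusted p = 0.0148), Tyrp1 (0.0451), Dct (0.0239), Slc45a2 (0.0434), Kit (0.0246) and Oca2 (0.00707), where 0.474% of all genes were called as higher in BLM. That library was the lowest BLM library for each of these genes, so leaving it out raised their differences and narrowed their spread by construction. Oca2 had no spread in NORMAL or EXO, and its SE fell from 0.324 to 0.0995. These calls are therefore not separate support.

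Between EXO and BLM, Mlana was lower by 3.85 ± 0.73 on the log2 scale (adjusted p = 0.197), Dct by 2.69 ± 0.63 (adjusted p = 0.296), Tyrp1 by 2.43 ± 0.44 (adjusted p = 0.173) and Pmel by 2.20 ± 0.74 (adjusted p = 0.545). None was called with these settings, with 2 of 14254 genes called in this comparison, again 0.014%, and 975 at an unadjusted p below 0.05. Nor was any called with the block (adjusted p = 0.065 for Mlana), where 0.0561% of all genes were called as lower in EXO. Mlana and Tyrp1 were called with quantile normalization (adjusted p = 0.042 for both), median-ratio scaling (0.0369 and 0.0343), only the 6 libraries of these groups (0.0148 and 0.0287) and without NORMAL library 3 (0.0404 for both). These settings called 34, 32, 91 and 85 of all genes tested as lower in EXO. Tyrp1 was in these fits through its BLM libraries alone. With no filter and the main scaling neither was called (limma adjusted p = 0.384 for Mlana and 0.341 for Tyrp1). By the weaker rule with no filter 8 of the 10 were lower in EXO, all but Sox10 and Mitf, against 1.04% of all genes. Without BLM library 3 this count was 3, made up of Mlana, Tyrp1 and Dct. In the filtered fit 5.66% of all genes passed in either direction without that library, and 5.3% with every library. The share with no filter was not counted. Without BLM library 2 and with no filter, Mlana (limma adjusted p = 0.0199), Dct (0.0421), Slc45a2 (0.0467), Kit (0.0376) and Oca2 (0.00707) were called as lower in EXO, along with 0.407% of all genes. Here too the library left out was the lowest BLM library for these genes, so the calls are not separate support. The median log2 difference of the 10 genes was -1.35, and that of all genes 0.04. Sox10 differed by -0.63 ± 0.49 (adjusted p = 0.822) and Mitf by 0.87 ± 0.46 (adjusted p = 0.771), and without BLM library 3 Mitf passed the weaker rule as higher in EXO, by 1.22 ± 0.45 with no filter (unadjusted p = 0.0291). This comparison shares its BLM libraries with the one before it, so that the comparisons are not independent.

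Between EXO and NORMAL none of the 10 genes passed either rule. The differences of the 6 filtered genes ran from 0.22 for Tyrp1 to 0.62 for Sox10 on the log2 scale, each with an adjusted p of 0.997 by limma. That fit called 0 genes (0%), with 332 at an unadjusted p below 0.05, and 0.712% of all genes passed the weaker rule with no filter. The SE of 0.73 for Mlana, against a difference of 0.28, leaves room for a difference of more than 1 in either direction, so that these values do not show that the groups were alike.

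**Figure D2:**
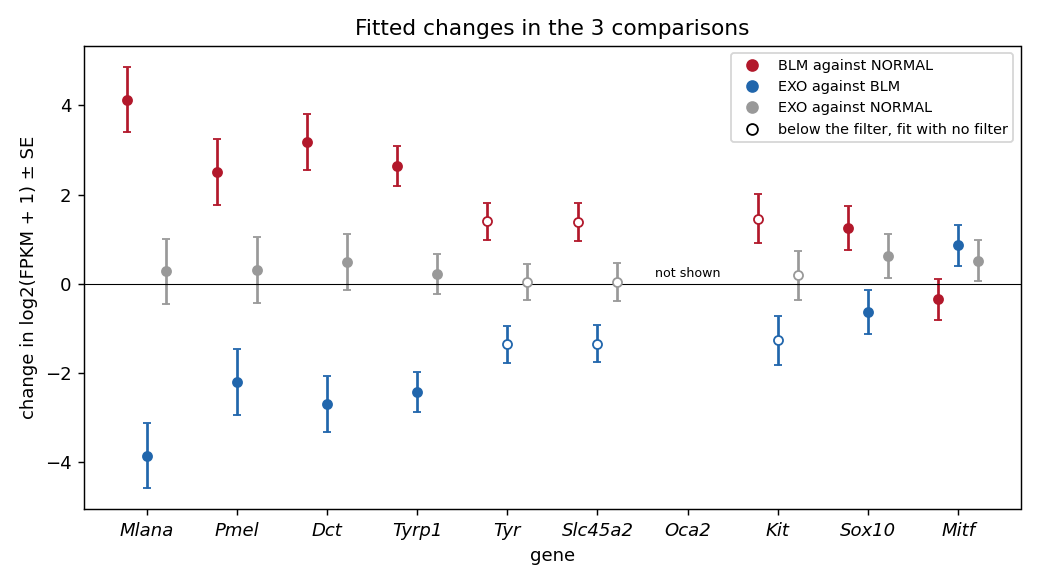
Fitted differences in log2(FPKM + 1), with their SE, for BLM against NORMAL, EXO against BLM and EXO against NORMAL, and open markers for the genes read from the fit with no filter. Oca2 is not shown because NORMAL and EXO list it at 0. Mlana stands 4.13 higher in BLM than in NORMAL and 3.85 lower in EXO than in BLM, and its difference between EXO and NORMAL is 0.28.

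The summed level of the 7 scaffold, enzyme and transporter genes was 1.88, 0.88 and 4.55 FPKM in NORMAL, 77.52, 16.6 and 182.68 FPKM in BLM, and 3.67, 2.44 and 6.15 FPKM in EXO. The 3 BLM libraries thus spanned more than the gap between the lowest of them and the NORMAL or EXO libraries. Mlana took the largest share of this sum in BLM, at 46.6%, 43.6% and 53.5%. Pmel took 10.7%, 12.7% and 21.4% of it in BLM, but 35.6%, 46.6% and 36.7% in NORMAL and 34.3%, 34.8% and 30.2% in EXO. The Pmel share was lower in every BLM library than in any other, so the measured level of the scaffold gene was higher by less than the sum as a whole. Shares outside BLM rest on few fragments, such as about 12.2 for Pmel and 3.42 for Mlana in NORMAL library 2. Reads shared with Cdk2 and Dgka also cannot be told apart from Pmel, and their part in its share was not tested. The share of Dct differed little between groups, from 16.3% to 20.5% in BLM and from 18.1% to 22.7% in NORMAL, with 1 EXO library at 35.1%.

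**Figure D3:**
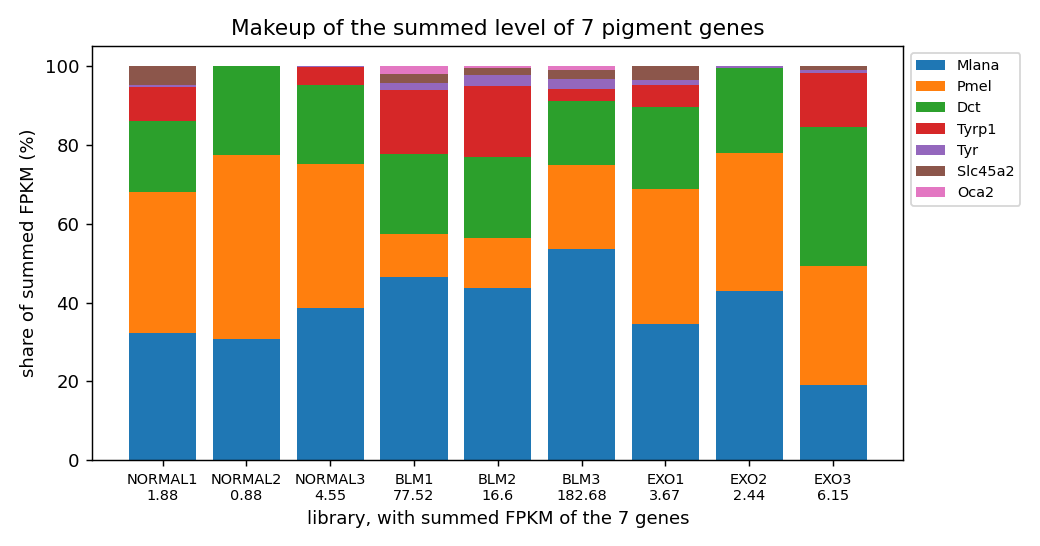
Share of the summed FPKM of the 7 pigment genes taken by each gene in each library, with the sum written under the library's name. Mlana fills 43.6% to 53.5% of the BLM bars, and the Pmel band is narrower there than in the NORMAL and EXO bars.

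Set against the regulators, the sum per unit of Mitf was 68.6, 6.26 and 37.8 in BLM, and between 0.34 and 0.83 in the other 6 libraries. The sum per unit of Sox10 was 18.7, 23.7 and 39.1 in BLM, and between 1.56 and 11 elsewhere. Both ratios therefore separated BLM from the rest, and neither regulator followed the pigment genes in proportion. Since both genes are also used by cells other than melanocytes, these ratios are not levels per melanocyte.

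Other genes of the melanosome gave a mixed picture. Of 16 genes for further melanosome proteins and pigment transport, 4 were higher and 0 lower in BLM than in NORMAL by the weaker rule with no filter, and 4 were lower and 1 higher in EXO than in BLM. Of all genes 1.32% were higher and 1.14% lower in BLM than in NORMAL by this rule, and 1.04% were lower and 1.29% higher in EXO than in BLM. Gpnmb, a relative of Pmel that macrophages use too, measured 0.84, 0.22 and 2.69 FPKM in NORMAL, 16.22, 3.04 and 22.07 FPKM in BLM, and 2.65, 3.40 and 2.95 FPKM in EXO, with BLM library 2 inside the EXO range. Slc24a5, an ion exchanger of the pigment cell, was at 4.05, 0.48 and 11.56 FPKM in BLM and at no more than 0.15 FPKM elsewhere. Trpm1, an ion channel gene of melanocytes and retinal cells, was at 4.01, 0.87 and 7.27 FPKM in BLM and at no more than 0.10 FPKM elsewhere. Tspan10, a tetraspanin gene named after its values were seen, was at 2.73, 0.60 and 4.38 FPKM in BLM and at no more than 0.28 FPKM elsewhere. All 3 BLM libraries were the highest for Slc24a5, Trpm1 and Tspan10.

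The genes of the motor that carries finished melanosomes, named after their values were seen, did not all go one way. Myo5a, the myosin, was at 5.97, 2.74 and 6.38 FPKM in BLM, 1.29, 0.35 and 4.17 FPKM in NORMAL, and 1.41, 1.01 and 2.37 FPKM in EXO. Mlph, the adaptor between myosin and melanosome, was at 0.95, 0.54 and 1.57 FPKM in BLM, 0.11, 0 and 0.36 FPKM in NORMAL, and 0.23, 0.22 and 0.31 FPKM in EXO. Every BLM library was above the others for Mlph, but its log2 difference from NORMAL, 0.78 ± 0.21 with no filter, did not reach 1. Rab27a, the small GTPase that links the melanosome to it and is used in secretion by many cells, was at 1.95, 0.35 and 1.11 FPKM in BLM, 3.44, 0.84 and 2.23 FPKM in NORMAL, and 3.84, 6.23 and 10.5 FPKM in EXO. Every EXO library was above every BLM library for Rab27a, while BLM and NORMAL overlapped. Rab27a passed the weaker rule as higher in EXO than in BLM, by 1.86 ± 0.48 (limma adjusted p = 0.348). The 16 genes of the complexes that build melanosomes and related organelles in all cells, such as Bloc1s1 and Ap3d1, gave 0 passes in both comparisons. Of all genes 1.32% were higher and 1.14% lower in BLM than in NORMAL, and 1.04% lower and 1.29% higher in EXO than in BLM. A count of 0 in this list therefore says little. Every BLM library lay below every EXO library for 2 of the 16 (7.3% of all genes) and below every NORMAL library for 1 (4.56%).

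Among 11 genes for the ligands and receptors of melanocytes, 3 were higher in BLM than in NORMAL, against 1.32% of all genes, and 2 lower in EXO than in BLM, against 1.04%, by the weaker rule with no filter. Mc1r, the receptor of melanocyte-stimulating hormone, was at 2.51, 0.98 and 4.03 FPKM in BLM, at 0.10, 0 and 0.01 FPKM in NORMAL, and at 0.01, 0.06 and 0.07 FPKM in EXO. Edn3, a peptide that promotes the growth of melanocytes, was at 3.40, 1.53 and 5.01 FPKM in BLM, and at 0.24 FPKM or less in NORMAL and 0.68 FPKM or less in EXO. Both separated BLM from every other library. Edn3 was higher in BLM than in NORMAL by 1.83 ± 0.36 (limma adjusted p = 0.174, and 0.381 with no filter), and it passed the filter through its BLM libraries alone.

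Kitl, the ligand of Kit, was at 5.12, 1.76 and 5.25 FPKM in BLM, 0.90, 0.81 and 1.60 FPKM in NORMAL, and 1.73, 3.57 and 1.38 FPKM in EXO. It stood above NORMAL in every BLM library, but BLM library 2 lay within the EXO range. Ednrb, the receptor of Edn3, was at 2.03, 1.21 and 7.93 FPKM in BLM and at 1.08, 1.79 and 4.13 FPKM in NORMAL, so that these groups overlapped. Asip, the antagonist of Mc1r, was not analysed here.

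Of 12 further transcription factors of melanocytes, 1 was lower in BLM than in NORMAL, against 1.14% of all genes, and 1 higher in EXO than in BLM, against 1.29%, by the weaker rule with no filter, and 0 were higher in BLM. The lower one was Tfeb, a relative of Mitf that governs lysosome genes, at 0.93, 0.42 and 1.41 FPKM in BLM against 5.31, 1.64 and 4.47 FPKM in NORMAL. The higher one was Irf4, also a factor of lymphocytes, at 3.38, 9.89 and 8.45 FPKM in EXO against 1.94, 0.74 and 2.18 FPKM in BLM. Pax3, which acts upstream of Mitf, was at 0.21 FPKM or less in every library. Lef1, a Wnt pathway factor of follicles and melanocytes, was at 1.08, 0.36 and 8.58 FPKM in BLM and at 0.14, 0 and 1.63 FPKM in NORMAL, with overlap.

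Genes of the growing hair follicle moved with the pigment genes. Of 9 genes of the hair matrix and inner sheath, 7 were higher in BLM than in NORMAL, against 1.32% of all genes, and 7 lower in EXO than in BLM, against 1.04%, by the weaker rule with no filter. Their median log2 differences were 2.79 and -3.39 in the filtered fit, against -0.03 and 0.22 for all genes tested. Their summed level was 10.2, 5.26 and 201.8 FPKM in NORMAL, 614.5, 133.4 and 660.1 FPKM in BLM, and 20.3, 14.4 and 17.5 FPKM in EXO. Shh, a signal made by the hair matrix, was at 14.29, 5.74 and 17.23 FPKM in BLM and at 0.29 FPKM or less in all 6 other libraries. It was called in both comparisons by limma, higher by 3.46 ± 0.40 in BLM than in NORMAL (adjusted p = 0.029) and lower by 3.39 ± 0.40 in EXO than in BLM (adjusted p = 0.0268). Shh passed the filter through its BLM libraries alone, and with no filter it was not called in either comparison (adjusted p = 0.136 and 0.147). The part of hair growth stage in the pigment result was not tested, and with back skin shaved in the model and no stage given for the libraries, hair stage and treatment cannot be told apart.

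NORMAL library 3 set the pigment genes apart from the hair genes. Its Krt71, an inner sheath keratin, was at 49.67 FPKM and its Dlx3, a hair transcription factor, at 42.16 FPKM, close to the 52.42 and 38.2 FPKM of BLM library 2. Other hair genes were not as close. Krt35 was at 32.06 FPKM in NORMAL library 3 and 9.62 FPKM in BLM library 2, and Msx2 at 11.8 and 5.8 FPKM. The pigment sum was 4.55 FPKM in that NORMAL library and 16.6 FPKM in that BLM library, and Shh was at 0.22 and 5.74 FPKM. The pigment sum as a percent of the hair sum was 2.25% in NORMAL library 3, and 12.4% to 35.2% in the 8 other libraries, with 12.6%, 12.4% and 27.7% in BLM. Relative to hair genes, BLM libraries 1 and 2 therefore lay below NORMAL libraries 1 and 2, at 18.5% and 16.7%. They also lay below all 3 EXO libraries, at 18.1%, 16.9% and 35.2%. BLM library 3 was above each of these save EXO library 3. In NORMAL libraries 1 and 2 and in EXO both sums were low, 0.88 to 6.15 FPKM for pigment and 5.26 to 20.3 FPKM for hair. Their ratios are therefore uncertain, and the order does not show how pigment and hair genes were related in BLM skin.

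**Figure D4:**
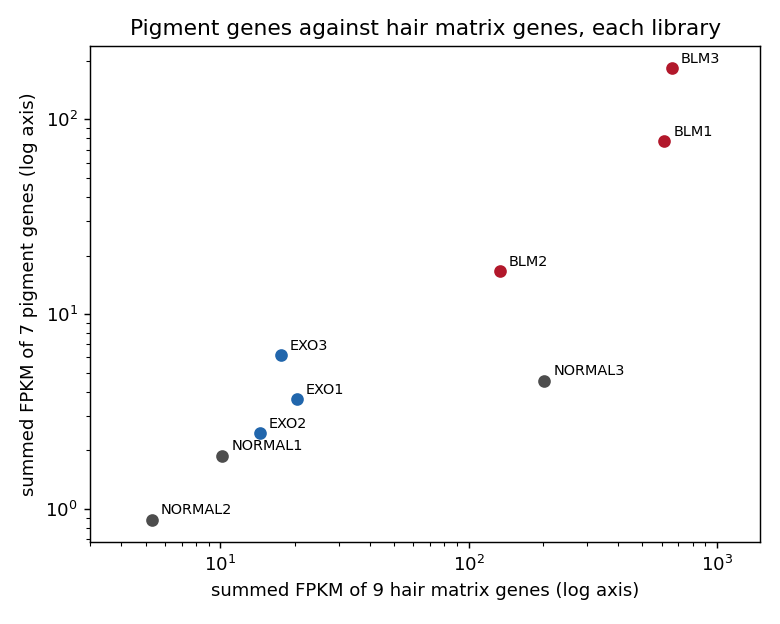
Summed FPKM of the 7 pigment genes against that of 9 hair matrix genes in each library, both on log axes. The 3 BLM libraries lie at the upper right, and NORMAL library 3 lies apart with a hair sum of 201.8 FPKM and a pigment sum of 4.55 FPKM.

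Genes of cell division moved in the same direction: 8 of 8 were higher in BLM than in NORMAL, against 1.32% of all genes, and 7 lower in EXO than in BLM, against 1.04%, by the weaker rule with no filter. Mki67, a mark of dividing cells, was at 32.51, 8.40 and 20.97 FPKM in BLM, 1.99, 0.99 and 2.94 FPKM in NORMAL, and 2.58, 2.44 and 5.81 FPKM in EXO. Its part in the pigment result was not tested.

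Markers of mast cells and Schwann cells, which share Kit or Sox10 with melanocytes, gave few passes by the weaker rule with no filter. Of all genes, 1.32% were higher and 1.14% lower in BLM than in NORMAL by this rule. In EXO against BLM 1.04% were lower and 1.29% higher. So few genes pass that a count of 0 in a short list says little. The part of these cells in the Kit and Sox10 levels was not tested. Of 9 mast cell genes 0 passed in either direction in both comparisons, with summed levels of 10.5 to 21.6 FPKM in NORMAL, 7.71 to 30.2 FPKM in BLM and 6.16 to 51.2 FPKM in EXO. BLM library 2, whose Kit was at 0.18 FPKM, had a mast cell sum of 26.7 FPKM, and BLM library 1, whose Kit was at 3.74 FPKM, had 7.71 FPKM. Of 10 Schwann cell genes 0 passed in BLM against NORMAL and 1, Ngfr, was higher in EXO than in BLM, with sums of 24.6 to 34.1 FPKM in NORMAL, 19.1 to 47.6 FPKM in BLM and 33.8 to 48.8 FPKM in EXO. Every BLM library lay above every NORMAL library for 2 of these Schwann cell genes and 1 mast cell gene, against 3.01% of all genes. Every BLM library lay below for 1 and 0 of them, against 4.56%. Of 8 macrophage genes 1 was lower in BLM than in NORMAL by this rule, and all 8 lay lower in the filtered fit. Their median log2 difference was -0.47, against -0.03 for all genes tested. Of 8 keratinocyte genes 0 passed. Their median log2 difference in EXO against BLM was 1.11, against 0.22 for all genes tested, and 2 had every BLM library below every EXO library, against 7.3% of all genes. Of 10 skeletal muscle genes, 6 were lower in BLM than in NORMAL by the weaker rule in the filtered fit, against 3.02% of all genes tested, and 2 with no filter. Their median log2 difference in the filtered fit was -1.83. They took 1.64% to 10.8% of the summed FPKM in NORMAL and 0.837% to 1.55% in BLM, and their part in the pigment result was not tested.

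The genes whose pattern over the 9 libraries was most like the mean log2 level of Mlana, Tyrp1, Tyr, Dct and Pmel were Msi1, Mycn, Gm28018, Tdp1 and Troap, with Pearson's r from 0.980 to 0.983. These correlations describe 9 libraries that share their groups, their depth and their tissue makeup. With the group means removed r was 0.943 to 0.968. Since these genes were low outside BLM skin, that r rests largely on the BLM libraries. Msi1, Mycn and Gm28018 passed the filter through their BLM libraries alone. The genes were picked as the highest correlations on the same libraries, so these high values are in part set by the choice. Msi1, an RNA-binding protein of stem cells, was at 3.28, 1.13 and 4.93 FPKM in BLM and at 0.64 FPKM or less elsewhere. Mycn, a growth-promoting transcription factor, was at 18.16, 5.28 and 23.03 FPKM in BLM and at 0.96 FPKM or less elsewhere. In both genes BLM library 3 was the highest and library 2 the lowest of the BLM libraries, as in most of the pigment genes.

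Across the series, 11238 to 13461 genes reached 1 FPKM in a library. FPKM hold no depth, but the steps between the lowest values of processed pseudogenes put it at 14 M to 29.5 M fragments a library (M stands for 1e6), an estimate uncertain by a factor of 2. The mitochondrial share of the summed FPKM was 19.1% to 22.7% in NORMAL, 27.8% to 50.9% in BLM and 18.7% to 34.4% in EXO. It was highest in BLM library 2, the BLM library with the lowest pigment levels, and its part in the differences was not tested.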

How the data were processed

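Polyadenylated RNA was purified from total RNA of mouse skin, copied into strand-marked cDNA libraries and read from both ends. The deposited table holds FPKM per gene, made by the authors. The submitters' processing notes name cutadapt, HISAT2 2.0.4, StringTie 1.3.4d and mm9, with no role or order. The table holds no raw counts. Gene IDs were matched to GENCODE M21 (99.56% matched), from which all gene coordinates, on GRCm38, come. Coordinates were not read from the table. No library listed a 0 for any of the 675 genes whose median exceeded 50 FPKM, and 132 gene symbols occurred more than once.

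Groups came from the sample labels. The test was the trend form of limma 3.58.1, run in R 4.3.3, on log2(FPKM + 1), for 14254 genes with at least 1 FPKM in at least 3 libraries, and for 30209 genes above 0 in any library where no filter was used. It was tested on simulated data. The library numbers pair the libraries: deviations from the group means correlated at 0.173 to 0.679 in the 9 same-number pairs and at -0.547 to 0.203 in the 18 others, with the library that carries no number taken as the third of each group. The source of the pairing is not given. Alternatives were other scalings, pseudocounts, filters, variance models and sets of libraries. The fit with a block and no filter was chosen after seeing the data.

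The members and gene lists were chosen with earlier results of these data known. The text names all 10 members, up to 4 genes of each other list (up to 2 with the largest rise and 2 with the largest fall past the weaker rule in BLM against NORMAL or EXO against BLM, otherwise those with the highest mean FPKM), Kitl, Asip, Mc1r, Edn3, Ednrb, Pax3 and Lef1, and the 5 genes most like the members. Tspan10, Myo5a, Mlph, Rab27a and Shh were exceptions, named after their values were seen. Promoters came from RefSeq (GRCm38.p6). Fragment numbers derived from the estimated depth cover counting only.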

Additional observations from a re-analysis of the deposited data

How the results depend on the processing

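Of 579 values of the members under the alternatives, 550 kept their direction and their side of the threshold, and 27 gained a call. Many of these could not turn. A setting that alters only the SE, or leaves out a library of the group not compared, leaves the difference unchanged. The 2 that turned were Mitf in BLM against NORMAL without BLM replicate 1 and Tyrp1 in EXO against NORMAL without EXO replicate 3. With 1 library left out the first ran from -0.70 to 0.023 and the second from -0.032 to 0.41, and neither was called. The count of members past the weaker rule ranged, with 1 library left out, from 4 to 9 in BLM against NORMAL and from 3 to 9 in EXO against BLM, with the lowest counts, 4 and 3, without BLM replicate 3. The filter at 5 FPKM left 2 members, and leaving out a BLM library took Tyrp1 out of the filtered fit, so that it has no value there.

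Calls over all genes were few and moved with the setting. In BLM against NORMAL (2 calls) there were 0 with FPKM rescaled to the same total, a pseudocount of 0.1, no filter, the filter at 5 FPKM, only the 6 libraries compared, without all libraries numbered 2, or no filter with the replicate block, and 58 with quantile normalization, 67 with median-ratio scaling and 60 with the replicate block. With 1 library left out there were 0 to 131, the most without NORMAL replicate 3, and 6 without BLM replicate 2. Mlana, Tyrp1 and Dct were called with quantile normalization (adjusted p = 0.0291, 0.0265 and 0.0324), with median-ratio scaling (adjusted p = 0.0198, 0.0188 and 0.0247) and with the block. Tyrp1 passed the filter through its BLM libraries alone. With no filter and the main scaling none of them was called (limma adjusted p = 0.336, 0.279 and 0.487). Over the alternatives the adjusted p of Mlana ran from 0.0198 to 0.9998. In EXO against BLM (2 calls) there were 1 at the same total, 36 with quantile normalization, 33 with median-ratio scaling, 97 with only the 6 libraries compared, 11 with the replicate block, and 0 with a pseudocount of 0.1, no filter, the filter at 5 FPKM, without all libraries numbered 2, or no filter with the block. With 1 library left out there were 0 to 87, the most without NORMAL replicate 3. In EXO against NORMAL (0 calls) there were 1 with a pseudocount of 0.1 and 3 with the replicate block.

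By the weaker rule, 841, 755 and 244 filtered genes passed in the 3 comparisons, and 490, 410 and 128 with the filter at 5 FPKM. In EXO against NORMAL 490 passed with the replicate block, and 395 with the block and no filter. With 1 library left out 470 to 2045 passed in BLM against NORMAL, and 164 to 1374 in EXO against NORMAL, both highest without NORMAL replicate 3. The share of passing genes that were higher in BLM than in NORMAL was 48.9%, and 27.8% at the same total, 68% with quantile normalization and 65.7% with median-ratio scaling. For EXO above BLM it was 57.2%, 76.8%, 36.1% and 33.3%. The replicate block changed no other member's call. The causes of these changes were not tested. Levels near 0 in NORMAL and EXO and the absence of counts limit the ratios of Tyr, Slc45a2 and Oca2.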
